A study of Mus musculus with 6 samples.

Results

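The 10 genes described here encode glycolytic enzymes and a kinase that acts just after glycolysis: Hk1, Hk2, Pfkl, Aldoa, Aldoc, Pgk1, Eno1, Eno2, Ldha and Pdk1. They were chosen by symbol, and each symbol named 1 of the 37991 genes in the deposited count files and 1 row of the deposited RPKM files. The tissue was the dorsal telencephalon, the embryonic forebrain wall that gives rise to the neocortex, of CD1 mouse embryos at E13.5. In the FGF2 group, 3 embryos (numbered 6, 7 and 8) had received 100 ng of the growth factor FGF2 in the ventricles of the telencephalon. In the vehicle group, 3 embryos (7, 8 and 9) were injected there with PBS holding 0.1% BSA. The strain, the age, the injection and the fixation were common to both groups, and the sources used here do not give the time between injection and collection. RNA came from formalin-fixed cryosections of anterior brain, in front of the hippocampus, with 1 library per embryo, so each value stands for a mixture of cells.

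Glycolysis splits glucose into pyruvate through a chain of enzymes, and lactate dehydrogenase can turn that pyruvate into lactate. Several steps are served by alternative isoenzymes encoded by separate genes, which differ between cell types. Many of these genes are targets of hypoxia-inducible factor 1 (HIF1), a transcription factor stabilised at low oxygen. In developing and adult brain, Aldoc is known as an aldolase of radial glia and astrocytes, and Eno2 as the enolase of neurons.

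Of the 10 genes, 1 passed the test between FGF2 and vehicle embryos: Aldoc fell to 0.433 of its vehicle level. The other 9 did not pass, with log2 fold changes (FGF2 over vehicle) from -0.48 to 0.17. The sign was negative for 9 of the 10, and the median was -0.32, against 0.01 over all 21983 genes tested. All 10 passed the filter on low counts. Unadjusted p-values were under 0.05 for 5 of the 10, all negative in sign, and 8.13% of all genes tested were lower by that measure. In all genes tested, 3.63% were called, 0.951% as lower and 2.68% as higher, at an adjusted p of 0.05 (edgeR quasi-likelihood test, Benjamini-Hochberg), and 48.6% had a negative log2 fold change. By counts scaled to library size (CPM), all 3 FGF2 embryos were below all 3 vehicle embryos for 6 of the 10 genes (Hk2, Pfkl, Aldoc, Pgk1, Ldha and Pdk1), and for 13.6% of all genes tested. By the authors' RPKM, the groups were apart in this way for 3 of the 10 (Hk2, Pfkl and Aldoc), and for 9.19% of the 21041 tested genes that have an RPKM row. RPKM also divides by gene model length, which is the same in every embryo. Why RPKM and CPM differ in this was not tested.

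Each count is the number of alignments over a gene's whole span, introns included, and the strand setting is unknown, so reads of overlapping genes can be counted in both. Total counts were 64631136 to 81532334 in FGF2 libraries and 61489462 to 68101511 in vehicle libraries. In the vehicle 9 library every count was even. Halving it moved none of the 10 calls, but the fit scales each library to its size, so halving could change little. What made the counts even was not tested. Vehicle 9 also stood apart in how reads were divided between Eno1 and its copies, as given below. Reads on Y-linked genes numbered 10475 to 16232 for every FGF2 embryo and for vehicle 7, but 22 each for vehicle 8 and vehicle 9, so sex and treatment overlap in part. With sex as a covariate, edgeR called 5 genes in all and 0 of the 10 (3 of the 10 at an unadjusted p of 0.05; DESeq2 was not run with sex). Markers of the labelled tissue were present, though 3 of 7 (Emx1, Pax6 and Eomes) fell in FGF2 embryos. Their summed level was 1176 to 1421 CPM in FGF2 embryos and 1908 to 2013 CPM in vehicle embryos. Markers of other tissue moved with the groups. All 8 choroid plexus genes were tested and their sum was 163 to 487 CPM in FGF2 embryos and 2.0 to 4.17 CPM in vehicle embryos, with 7 called as higher. The 11 ventral telencephalon genes summed to 515 to 748 CPM in FGF2 embryos and 34.2 to 134 CPM in vehicle embryos, with 8 called as higher. None of these choroid plexus and ventral genes was at 0 in all vehicle embryos. The part of these other tissues in the values below was not tested, and in such mixtures fewer cells of a type and less RNA per cell cannot be told apart.

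**Figure D1:**
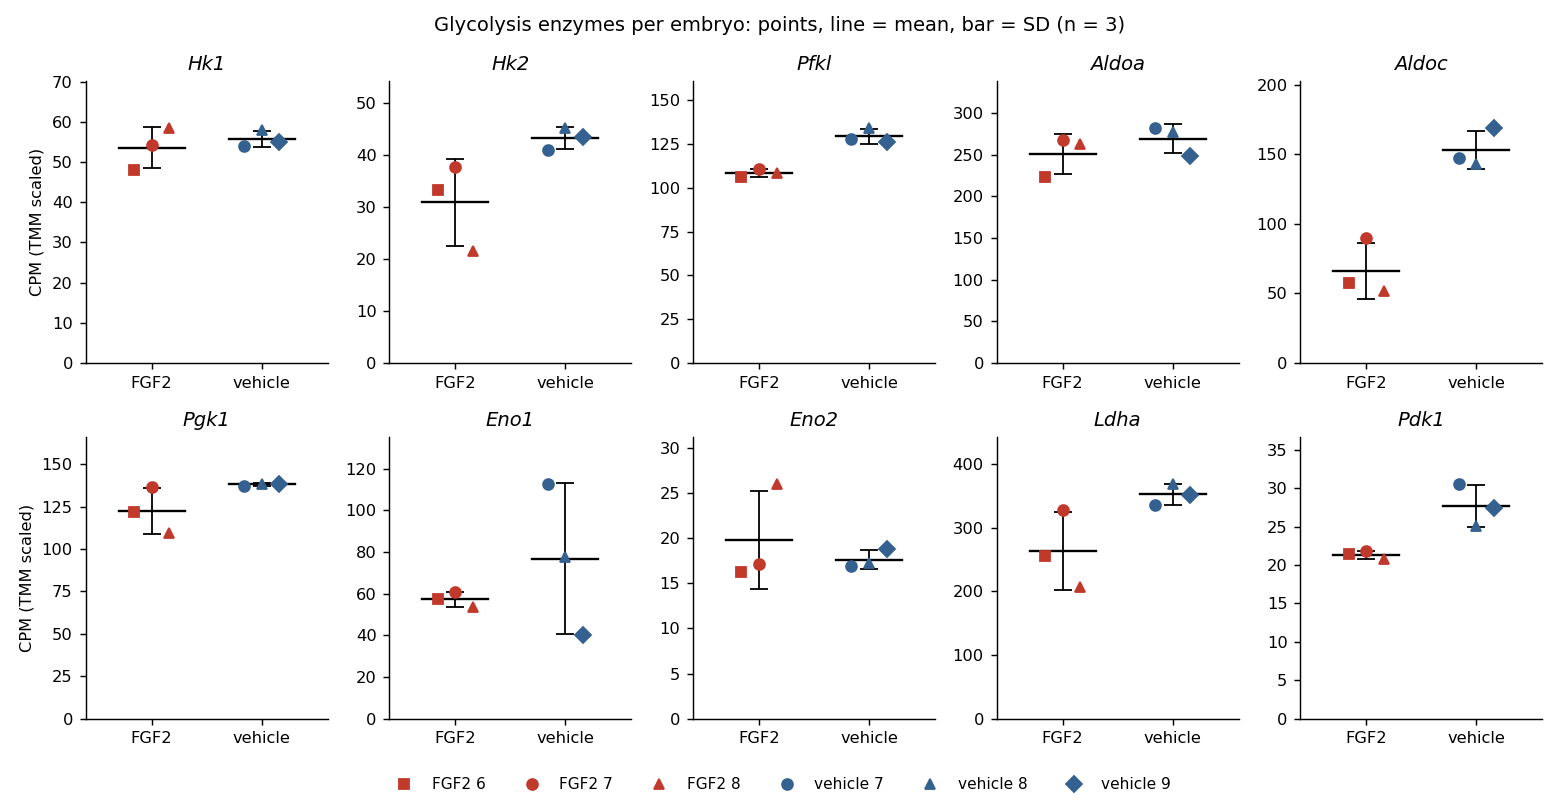
CPM of each of the 10 genes (y axes from 0) in 3 FGF2 embryos (red, left) and 3 vehicle embryos (blue, right). Lines are means and bars SDs. Aldoc shows the widest gap between groups, with 52.0 to 89.5 CPM in FGF2 embryos and 143 to 169 CPM in vehicle embryos.

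The promoter of Aldoc, the gene called, is shown with those of the HIF1 targets Hk2 and Ldha. That of Eno2, the gene with a positive log2 fold change, is also shown. By CPM, Hk2 and Ldha were lower in every FGF2 embryo, as were Pfkl, Pgk1 and Pdk1, which are not shown. By RPKM the Ldha, Pgk1 and Pdk1 groups overlapped. Each window shown is 300 bases, 250 before and 50 after a transcript start, from RefSeq on build GRCm38.p6 (a different build from the count files). Capitals mark the core of the HIF binding motif, ACGTG or GCGTG, on either strand. The palindrome CACGTG holds ACGTG on both strands and counts as 2 matches.
Aldoc, chr11:78322823-78323122, + strand: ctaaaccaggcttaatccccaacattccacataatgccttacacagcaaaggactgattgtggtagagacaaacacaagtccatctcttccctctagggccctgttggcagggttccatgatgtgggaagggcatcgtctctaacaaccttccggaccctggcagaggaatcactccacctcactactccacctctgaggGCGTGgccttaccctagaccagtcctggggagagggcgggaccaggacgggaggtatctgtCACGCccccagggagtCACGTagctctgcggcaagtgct
Hk2, chr6:82774405-82774704, - strand: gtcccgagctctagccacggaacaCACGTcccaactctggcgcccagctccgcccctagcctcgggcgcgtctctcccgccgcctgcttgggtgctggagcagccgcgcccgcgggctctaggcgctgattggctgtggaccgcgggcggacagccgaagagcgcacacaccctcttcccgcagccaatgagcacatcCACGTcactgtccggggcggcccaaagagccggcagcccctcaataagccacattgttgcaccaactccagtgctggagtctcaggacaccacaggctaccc
Ldha, chr7:46845554-46845853, + strand: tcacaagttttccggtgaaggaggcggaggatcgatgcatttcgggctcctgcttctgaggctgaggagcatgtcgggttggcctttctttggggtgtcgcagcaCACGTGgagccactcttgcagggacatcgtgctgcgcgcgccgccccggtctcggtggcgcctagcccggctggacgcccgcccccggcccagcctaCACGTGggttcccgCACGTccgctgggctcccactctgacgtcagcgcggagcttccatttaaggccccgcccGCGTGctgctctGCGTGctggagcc
Eno2, chr6:124769624-124769923, - strand: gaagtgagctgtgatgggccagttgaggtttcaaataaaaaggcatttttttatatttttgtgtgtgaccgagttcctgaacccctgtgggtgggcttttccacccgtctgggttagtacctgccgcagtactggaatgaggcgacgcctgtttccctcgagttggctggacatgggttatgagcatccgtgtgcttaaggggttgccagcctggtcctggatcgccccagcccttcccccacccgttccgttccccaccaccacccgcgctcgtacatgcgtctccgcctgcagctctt
The Aldoc window holds 1 ACGTG and 2 GCGTG, the Hk2 window 2 ACGTG, the Ldha window 5 ACGTG and 2 GCGTG, and the Eno2 window 0 of either. Aldoc and Ldha each have a second window in RefSeq, downstream of the one shown, which holds 0 ACGTG and 1 GCGTG for Aldoc and 0 ACGTG and 2 GCGTG for Ldha. The windows shown are those of the start farthest upstream, and for both genes they hold more matches than the other. Among the genes not shown, Hk1 (log2 fold change -0.06) had 2 ACGTG and 3 GCGTG in 1 window and 0 in another. Aldoa (-0.10) had at most 1 ACGTG per window, and Pgk1 (-0.17) had 2 ACGTG. Pfkl (-0.25), Pdk1 (-0.38) and Eno1 (-0.42) had 0 ACGTG and at most 1, 2 and 2 GCGTG per window. Whether matches go with the direction of change was not tested. Over all 10 genes, 14 of 18 windows held a match, against 43.8% of all 32851 windows of this length. For ACGTG alone these numbers were 7 of 18 and 19.6%. Windows of 1 gene can overlap, and G and C made up 56.3%, 67.3%, 67.3% and 56.3% of the bases of the 4 windows in the order shown. A match is a string of letters, and binding was not measured.

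Hexokinases trap glucose in the cell as glucose 6-phosphate. Hk1, the form used by most tissues including brain (chromosome 10, 61731603 to 61842656, build NCBIM37), had 48.1, 54.2 and 58.4 CPM in FGF2 embryos 6, 7 and 8, against 54.0, 58.0 and 55.0 CPM in vehicle embryos 7, 8 and 9. These ranges overlapped, and the log2 fold change was -0.06 ± 0.09 (SE, edgeR adjusted p = 0.778). Hk2, the inducible form and a HIF1 target (chromosome 6, 82675019 to 82724448), had 33.3, 37.7 and 21.6 CPM in FGF2 embryos, against 40.9, 45.1 and 43.5 CPM in vehicle embryos. Every FGF2 embryo lay below every vehicle embryo, and FGF2 8 was the lowest. The log2 fold change was -0.48 ± 0.19 (SE), short of the threshold (edgeR adjusted p = 0.216), and without FGF2 8 it was -0.28 (adjusted p = 0.0782). Each of these spans overlaps 1 other gene, which had at most 120 reads in any library over Hk1 and 15 over Hk2.

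The Hk2 to Hk1 ratio, compared after the values had been seen, was 1.02, 1.02 and 0.537 in RPKM in FGF2 embryos, against 1.12, 1.16 and 1.16 in vehicle embryos. Hk2 thus stood a little above Hk1 per unit of length in the vehicle embryos and in FGF2 6 and 7, and below it in FGF2 8. The groups did not overlap (log2 difference -0.47, two-sided exact permutation p = 0.1, the smallest that 3 against 3 embryos allow). Without FGF2 8 the difference was -0.16.

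Pfkl encodes the liver-type subunit of phosphofructokinase, which commits sugar to glycolysis (chromosome 10, 77449692 to 77472828). It had 106, 111 and 109 CPM in FGF2 embryos, against 128, 134 and 126 CPM in vehicle embryos. This was a small and even gap, with SDs of 2.16 CPM in FGF2 and 4.18 CPM in vehicle embryos. The log2 fold change of -0.25 ± 0.07 (SE) did not pass (edgeR adjusted p = 0.0923). Pfkl did pass in 3 of 20 other settings. These were edgeR without FGF2 8 (adjusted p = 0.0289), a voom fit that weights samples by quality (0.0301) and DESeq2 (0.0254). All genes called in them numbered 1943, 2148 and 2065, against 799 in the main fit. The voom fit gave FGF2 8 its lowest weight, 0.232, so it is close to leaving that embryo out. With embryo number as a block, Pfkl did not pass (edgeR adjusted p = 0.528).

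Aldolases cut the phosphorylated hexose into trioses. Aldoa, the form found in muscle and most embryonic tissue (chromosome 7, 133938748 to 133944265), had 223, 267 and 262 CPM in FGF2 embryos, against 282, 277 and 249 CPM in vehicle embryos. The groups overlapped, and the log2 fold change was -0.10 ± 0.10 (SE, edgeR adjusted p = 0.622). Aldoc (chromosome 11, 78136470 to 78141283) had 57.2, 89.5 and 52.0 CPM in FGF2 embryos, against 147, 143 and 169 CPM in vehicle embryos. The highest FGF2 embryo, FGF2 7, was well below the lowest vehicle embryo. Mean levels were 66.2 ± 20.3 CPM in FGF2 embryos and 153 ± 13.8 CPM in vehicle embryos (SD, n = 3 each), a log2 fold change of -1.21 ± 0.20 (SE, edgeR adjusted p = 0.0223). The size was stable when single embryos were left out (-1.49 to -1.06). The call was not: it was kept without FGF2 7 (adjusted p = 0.00503) and lost without FGF2 6 (0.0660), FGF2 8 (0.0626), vehicle 7 (0.0832), vehicle 8 (0.0786) or vehicle 9 (0.0826). With embryo sex as a covariate the log2 fold change was -1.15 (adjusted p = 0.276). Among male embryos, the 3 FGF2 embryos at 52.0 to 89.5 CPM all lay below vehicle 7 at 147 CPM.

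Per unit of length, Aldoc stood lower against Aldoa in FGF2 embryos. The ratio of Aldoc to Aldoa RPKM was 0.219, 0.285 and 0.167 in FGF2 embryos 6, 7 and 8, against 0.444, 0.441 and 0.577 in vehicle embryos 7, 8 and 9. Aldoa was the more abundant form in every embryo, and the groups did not overlap. Aldoc made up 18.0%, 22.2% and 14.3% of the aldolase RPKM of these genes in FGF2 embryos, against 30.7%, 30.6% and 36.6% in vehicle embryos. The ratio averaged 0.224 ± 0.0591 in FGF2 embryos and 0.487 ± 0.0780 in vehicle embryos (SD, n = 3 each). On the log2 scale the difference was -1.15, at the smallest p the design allows (two-sided exact permutation p = 0.1). It was -1.34 to -0.95 when single embryos were left out.

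**Figure D2:**
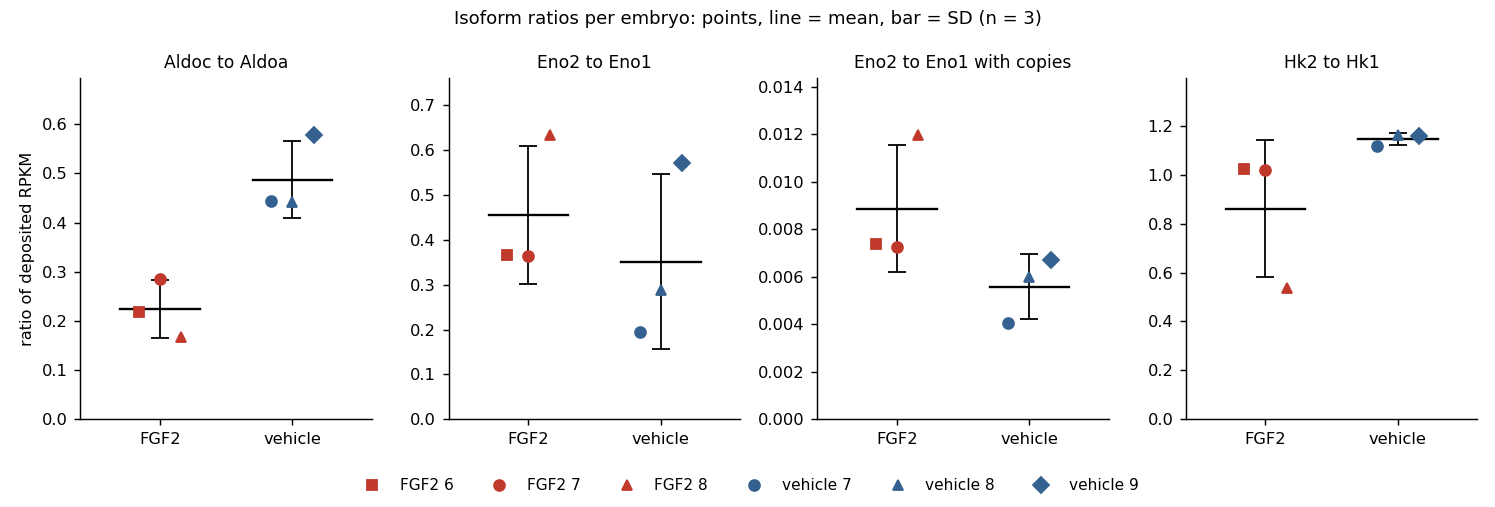
Ratio of deposited RPKM for pairs of isoenzyme genes (y axes from 0) in 3 FGF2 embryos (red, left) and 3 vehicle embryos (blue, right), with means and SDs. The Aldoc to Aldoa ratio is 0.167 to 0.285 in FGF2 embryos and 0.441 to 0.577 in vehicle embryos, while Eno2 to Eno1 overlaps until the near-identical Eno1 copies are added.

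Radial glia are the cells in which Aldoc is known at this age. Of 16 measured radial glia markers, 3 fell (Pax6, Sox9 and Ttyh1), 0 rose and 13 did not pass. At an unadjusted p of 0.05, 5 of the 16 passed, and DESeq2 called 4. Besides the 3 that fell, the 5 held Fabp7 (log2 fold change 0.48) and Ptprz1 (0.42), higher in every FGF2 embryo by CPM. Their median log2 fold change was -0.03. Their summed level was 3064 to 3602 CPM in FGF2 embryos and 3354 to 3724 CPM in vehicle embryos, ranges that overlap, and none was at 0 in all vehicle embryos. The part of radial glia number in the Aldoc result was not tested. By a fixed rule, the 3 genes of at least 10 CPM whose log2 CPM followed Aldoc most closely over the 6 embryos were Papss1 (Pearson r = 0.996), G430095P16Rik (0.995) and Ccnd2, a cyclin of the G1 phase (0.993), out of 11706 compared. With 6 points in 2 groups, this only describes the pattern.

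Pgk1 makes the first ATP of the pathway (X chromosome, 103382439 to 103399038). It had 122, 137 and 110 CPM in FGF2 embryos, against 137, 139 and 138 CPM in vehicle embryos. The vehicle embryos were almost alike, and by CPM FGF2 7 was just under the lowest of them. By RPKM FGF2 7, at 66.3, was above all vehicle embryos (64.4, 64.2 and 63.8). The log2 fold change was -0.17 ± 0.09 (SE, edgeR adjusted p = 0.356). These counts do not hold all of the Pgk1-like reads. A processed pseudogene, Pgk1-rs7, is 100% identical to the Pgk1 transcript over 1255 aligned bases, and Gm5537 over 1252 bases. Together these copies had 17923, 17885 and 9189 reads in FGF2 embryos, against 15476, 17324 and 16708 in vehicle embryos. Pgk1 itself held 34.3% to 43.4% of the summed reads. With the copies added, Pgk1 had 335, 389 and 252 CPM in FGF2 embryos, against 391, 398 and 403 CPM in vehicle embryos, and a log2 fold change of -0.29 ± 0.15 (SE, edgeR adjusted p = 0.338).

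Enolases convert 2-phosphoglycerate to phosphoenolpyruvate. Eno1, the widespread form (chromosome 4, 149610830 to 149622988), had 57.5, 60.9 and 53.5 CPM in FGF2 embryos, against 113, 77.5 and 40.3 CPM in vehicle embryos. The vehicle embryos spanned the FGF2 range, and the log2 fold change was -0.42 ± 0.32 (SE, edgeR adjusted p = 0.519). It was -0.04 without vehicle 7. Without vehicle 9, the only vehicle embryo below the FGF2 range, it was -0.73 (edgeR adjusted p = 0.103). Reads of Eno1 are shared with near-identical copies even more than those of Pgk1. The gene listed as Gm5506, which GENCODE names Eno1b, aligns to the Eno1 transcript at 99.5% identity over 1736 bases. The copy listed as Gm13699 aligns at 99.6% over 1302 bases. The copies had 61621, 58082 and 48345 reads in FGF2 embryos, against 87794, 66768 and 61732 in vehicle embryos. Eno1 itself held 6.64% to 7.28% of the summed reads in FGF2 embryos. In vehicle embryos 7, 8 and 9 it held 7.29%, 7.20% and 3.95%, so that vehicle 9 stood apart in how these reads were divided.

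With the copies added, enolase 1 had 790, 880 and 805 CPM in FGF2 embryos, against 1549, 1076 and 1020 CPM in vehicle embryos. The groups no longer overlapped, and vehicle 7 was the highest. Mean levels were 825 ± 48.0 CPM in FGF2 embryos and 1215 ± 290 CPM in vehicle embryos (SD, n = 3 each), a log2 fold change of -0.56 ± 0.16 (SE, edgeR adjusted p = 0.115). This sum was chosen after the counts had been seen, and the files do not show which copy a read came from.

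**Figure D3:**
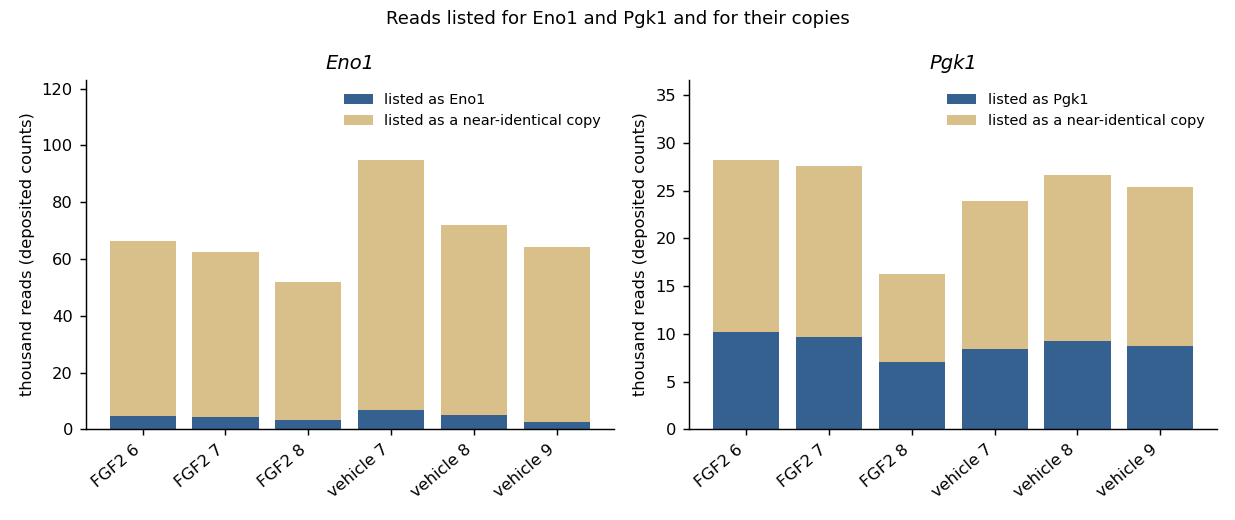
Deposited reads per embryo, in units of 1000, listed for Eno1 and Pgk1 (blue) and for their near-identical copies (tan), stacked, in FGF2 embryos 6, 7 and 8 and vehicle embryos 7, 8 and 9. Eno1 holds 3.95% to 7.29% of its sum and Pgk1 34.3% to 43.4%.

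Eno2, the neuronal enolase (chromosome 6, 124710071 to 124719691), had 16.2, 17.2 and 26.1 CPM in FGF2 embryos, against 16.9, 17.2 and 18.8 CPM in vehicle embryos. FGF2 8 was above the rest and the other FGF2 embryos were among the vehicle values. The log2 fold change was 0.17 ± 0.18 (SE, edgeR adjusted p = 0.666), and its sign turned without FGF2 8, at -0.08. In the same libraries, the 13 neuron markers summed to 1924, 2021 and 3217 CPM in FGF2 embryos, against 2345, 2391 and 2508 CPM in vehicle embryos, also highest in FGF2 8. Of the 13, 2 rose by edgeR (the neurofilament genes Nefl, by 1.32 on the log2 scale, and Nefm, by 1.17), 0 fell and 11 did not pass. The 11 had values of both signs (Neurod6 -1.03 and Tbr1 -0.73 among them). An unadjusted p under 0.05 was reached by 10 of the 13, in both directions. DESeq2 called 6 of the 13, and 2065 of the 22899 genes it tested, while edgeR called 3.63% of all genes tested. None of these markers was at 0 in all vehicle embryos, and their part in the Eno2 value was not tested.

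The Eno2 to Eno1 ratio in RPKM was 0.367, 0.364 and 0.633 in FGF2 embryos, against 0.195, 0.288 and 0.570 in vehicle embryos. The groups overlapped, with a log2 difference of 0.47 (two-sided exact permutation p = 0.4). Without vehicle 7 it was 0.11, and without vehicle 9, where Eno1 holds the smallest share of the reads, it was 0.89. With the copies added to Eno1 the ratio was 0.00738, 0.00727 and 0.0120 in FGF2 embryos, against 0.00407, 0.00599 and 0.00671 in vehicle embryos. The groups then did not overlap, at a log2 difference of 0.66 (two-sided exact permutation p = 0.1, the smallest possible). Eno2 was thus 0.405% to 1.18% of the enolase RPKM counted with copies, and 16.3% to 38.8% without them.

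Ldha encodes the lactate dehydrogenase subunit that favours making lactate (chromosome 7, 54096845 to 54110997). It had 256, 329 and 206 CPM in FGF2 embryos, against 336, 369 and 352 CPM in vehicle embryos. All FGF2 embryos were lower by CPM, FGF2 7 by little and FGF2 8 by most, while by RPKM the groups overlapped. The log2 fold change was -0.42 ± 0.16 (SE, edgeR adjusted p = 0.206), and -0.27 without FGF2 8 (adjusted p = 0.172). Pdk1, a kinase that switches off pyruvate dehydrogenase and so keeps pyruvate out of mitochondria (chromosome 2, 71711281 to 71741915), had 21.4, 21.8 and 20.7 CPM in FGF2 embryos, against 30.6, 25.1 and 27.4 CPM in vehicle embryos. By CPM the FGF2 embryos were close to each other and below all vehicle embryos. By RPKM the Pdk1 groups overlapped, at 2.55, 2.21 and 1.96 in FGF2 embryos, against 3.61, 2.48 and 3.33 in vehicle embryos. The log2 fold change of -0.38 ± 0.10 (SE) did not pass (edgeR adjusted p = 0.0923) but did with DESeq2 (adjusted p = 0.0184), which called 2065 of the 22899 genes it tested.

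**Figure D4:**
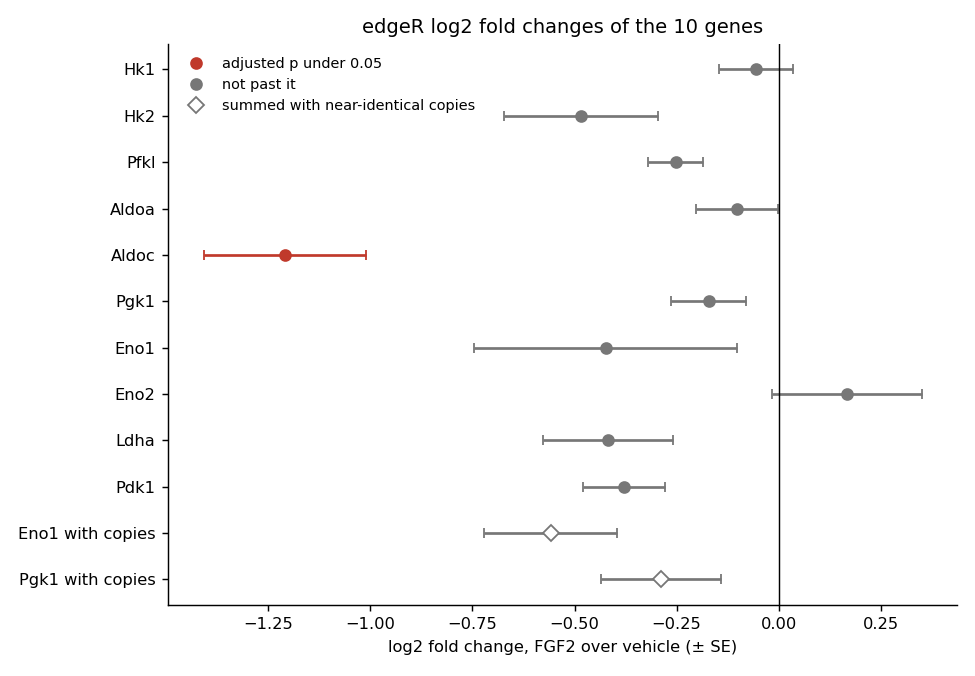
Log2 fold change, FGF2 over vehicle, of the 10 genes with its SE (edgeR, 3 against 3 embryos), and of Eno1 and Pgk1 with their copies added (open diamonds). Aldoc at -1.21 is the only one past an adjusted p of 0.05 (red), and only Eno2 has a positive value, at 0.17.

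On the RPKM scale, the levels of the 10 genes in vehicle embryos ran from Ldha (124 ± 5.02), Aldoa (103 ± 8.32) and Pgk1 (64.1 ± 0.340) through Aldoc (49.96 ± 3.86), Pfkl (30.5 ± 0.930) and Eno1 (13.1 ± 6.04) to Hk2 (7.48 ± 0.312), Hk1 (6.53 ± 0.144), Eno2 (3.84 ± 0.155) and Pdk1 (3.14 ± 0.591), as means ± SD over 3 embryos. Only Eno1 and Hk2 overlapped among neighbours in that order. In FGF2 embryos Aldoa (100.0 ± 8.76) and Ldha (96.6 ± 23.4) overlapped, as did Pfkl (26.6 ± 0.565) and Aldoc (22.5 ± 7.07). Hk1 (6.50 ± 0.571), Hk2 (5.51 ± 1.55) and Eno2 (4.42 ± 1.19) overlapped as neighbours too. Aldoc thus stood above Pfkl and apart from it in vehicle embryos, and below Pfkl but overlapping it in FGF2 embryos. The copies are outside this order. With them, enolase 1 reached 483 to 536 RPKM in FGF2 embryos and 598 to 916 RPKM in vehicle embryos, above all 10 genes.

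The rest of the pathway was read from lists drawn up with earlier results of these data known. Of 18 other enzymes between glucose and lactate, 14 were tested, of which by edgeR 1 rose, 0 fell and 13 did not pass. In all genes tested, edgeR called 3.63%. The median log2 fold change of the 14 was 0.03. An unadjusted p under 0.05 was reached by 5 of the 14, in both directions. DESeq2 called 4 of the 14, and 2065 of the 22899 genes it tested. The gene that rose by edgeR was Eno4, an enolase known from sperm, by 2.30 ± 0.34 (SE, edgeR adjusted p = 0.0130). Eno4 had 3.57, 2.75 and 4.23 CPM in FGF2 embryos, against 0.949, 0.778 and 0.413 CPM in vehicle embryos, and its call was lost without vehicle 8 (adjusted p = 0.0756) and with embryo sex as a covariate (0.315). Pkm, the pyruvate kinase of most tissues, had 1223, 1310 and 1074 CPM in FGF2 embryos, against 1476, 1537 and 1465 CPM in vehicle embryos. These did not overlap, and the log2 fold change of -0.31 ± 0.10 (SE) did not pass (edgeR adjusted p = 0.145). Pgam1, a phosphoglycerate mutase, stood likewise at -0.35 ± 0.10 (SE, edgeR adjusted p = 0.115). Ldhb, the subunit that favours using lactate, had 117, 119 and 163 CPM in FGF2 embryos, against 139, 137 and 141 CPM in vehicle embryos, where FGF2 8 was again apart, and the log2 fold change was -0.06. Gapdh cannot be read here: its own row held 0.472% to 0.959% of the reads shared with 40 listed near-identical copies.

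Carriers and the pyruvate switch showed 0 of 22 genes past the test in either direction with edgeR, with a median log2 fold change of 0.00. At an unadjusted p of 0.05, 3 of the 22 passed, all lower, and 8.13% of all 21983 genes tested were lower by that measure. DESeq2 called 2 of the 22, and 2065 of the 22899 genes it tested. The smallest p-values were those of Pdk2, a second pyruvate dehydrogenase kinase (-0.45 ± 0.11, SE), Slc16a3, a lactate exporter (-0.38 ± 0.10), and Slc16a7, a related carrier (-0.43 ± 0.18), at edgeR adjusted p-values of 0.0652, 0.0898 and 0.250. Slc2a1, the glucose carrier of the blood-brain barrier, stood at -0.09 ± 0.09 and Slc2a3, that of neurons, at -0.09 ± 0.15 on the log2 scale (adjusted p = 0.648 and 0.778).

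Other hypoxia-inducible genes had log2 fold changes on both sides of 0. Of 24, 1 fell, 0 rose and 23 did not pass, with a median log2 fold change of -0.02 and 13 negative values. An unadjusted p under 0.05 was reached by 4 of the 24, in both directions, and DESeq2 called 1. Ddit4, an inhibitor of mTOR signalling, fell by 0.50 ± 0.10 (SE, edgeR adjusted p = 0.0384), at 45.3, 53.5 and 57.6 CPM in FGF2 embryos, against 72.4, 76.8 and 71.9 CPM in vehicle embryos. Its call was kept without FGF2 8 (adjusted p = 0.00547) and lost without any other embryo (0.0691 to 0.176). It was also lost with embryo sex as a covariate (adjusted p = 0.448), with embryo number as a block (0.206) and in the 3 limma fits on RPKM (0.0512 to 0.0753). Vegfa, the vascular growth factor, had 79.9, 76.4 and 90.2 CPM in FGF2 embryos, against 74.8, 65.6 and 72.0 CPM in vehicle embryos. It was the opposite in sign to Ddit4, at 0.21 ± 0.09 (SE, edgeR adjusted p = 0.250). Car9, a carbonic anhydrase, was at 0.821 CPM in FGF2 embryos and 0.487 CPM in vehicle embryos, and Bhlhe40, a repressor, at 10.5 CPM in FGF2 embryos and 14.9 CPM in vehicle embryos. Neither passed (edgeR adjusted p = 0.201 and 0.160), and both spans overlap another gene, as do those of Pdk2, Slc16a3, Slc2a1, Slc2a3 and Hif1a.

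Among 8 HIF subunits and regulators, 1 fell, 0 rose and 7 did not pass, with a median log2 fold change of -0.21. An unadjusted p under 0.05 was reached by 3 of the 8, all lower, and 8.13% of all genes tested were lower by that measure. DESeq2 called 2 of the 8, and 2065 of the 22899 genes it tested. Hif3a, a HIF alpha subunit known to act against the others in some forms, had 38.3, 31.8 and 25.6 CPM in FGF2 embryos, against 65.9, 55.8 and 51.0 CPM in vehicle embryos. Hif3a fell by 0.85 ± 0.16 on the log2 scale (SE, edgeR adjusted p = 0.0323), and the call was lost without FGF2 7 or any 1 vehicle embryo (0.0731 to 0.130). It was also lost with embryo sex as a covariate (adjusted p = 0.171) and on log2(RPKM + 1) with no filter (0.0772). Hif1a itself had 117, 123 and 86.8 CPM in FGF2 embryos, against 121, 127 and 136 CPM in vehicle embryos. FGF2 8 was the lowest, the groups overlapped, and the log2 fold change was -0.23 ± 0.13 (SE, edgeR adjusted p = 0.401). Hif1an, which blocks HIF activity, and Arnt, the HIF beta subunit, were at -0.36 ± 0.09 and -0.22 ± 0.07 (SE, adjusted p = 0.0797 and 0.146).

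**Figure D5:**
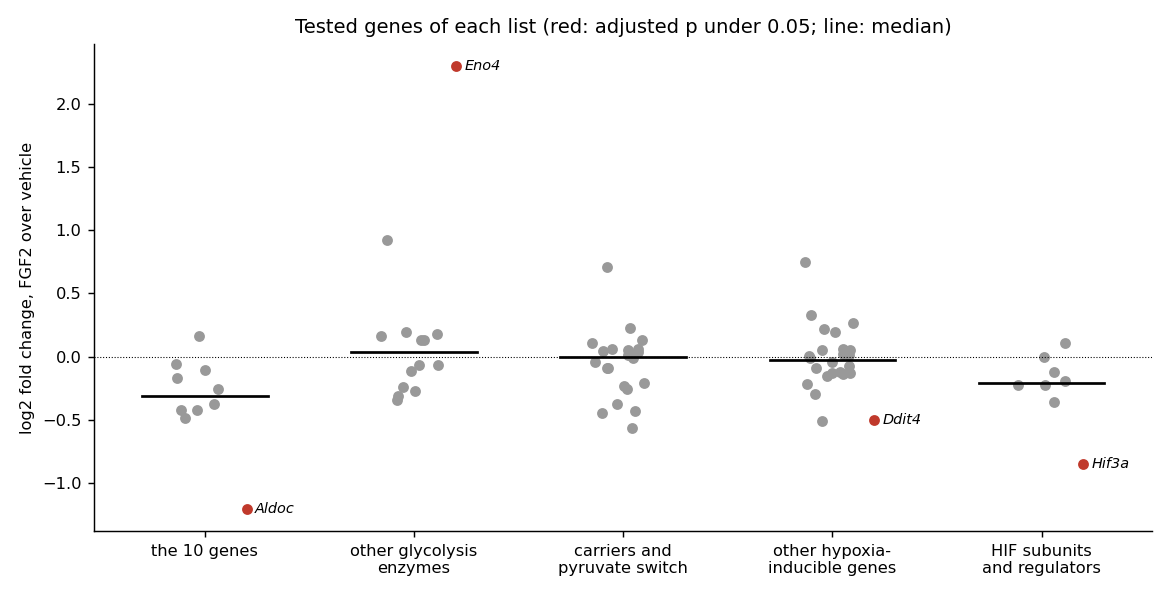
Log2 fold change, FGF2 over vehicle, of every tested gene in the 10-gene group and in 4 pathway lists, with medians as lines and genes past an adjusted p of 0.05 in red. The medians are -0.32, 0.03, 0.00, -0.02 and -0.21 from left to right, and Aldoc, Eno4, Ddit4 and Hif3a are the genes called.

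Other cells in the sections also differed in their markers. The 8 intermediate progenitor genes summed to 654 to 803 CPM in FGF2 embryos and 1075 to 1162 CPM in vehicle embryos, with 5 called as lower. The 7 meningeal genes summed to 2185 to 2431 CPM in FGF2 embryos and 3526 to 4045 CPM in vehicle embryos, with 2 called as lower and 1 as higher. The 6 microglial genes summed to 77.5 to 87.1 CPM in FGF2 embryos and 51.2 to 61.4 CPM in vehicle embryos, with 3 called as higher. The 10 red cell genes (2629 to 4676 CPM in FGF2 embryos, 2348 to 3292 CPM in vehicle embryos) and the 10 endothelial genes (289 to 335 CPM, 256 to 293 CPM) overlapped between groups, with 0 called in each by edgeR. At an unadjusted p of 0.05 these counts were 2 and 3, and with DESeq2 1 and 0. In all, DESeq2 called 2065 of the 22899 genes it tested. Of 7 muscle and skin genes 5 were tested, with 0 called by edgeR, 0 at an unadjusted p of 0.05 and 0 by DESeq2, and Myog, a defining factor of muscle, had 0 reads in all vehicle embryos. Whether these cells have a part in the values of the 10 genes was not tested.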

How the data were processed

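RNA-seq was analysed from 6 embryos, 3 FGF2 and 3 vehicle. The deposited counts are whole reads per gene with the covered fraction of each gene span, and separate deposited files give RPKM (reads scaled to gene model length and library size). The deposited fraction was used only to see how much of each span was covered, which was 53.2% to 100% for the 10 genes. The submitters' processing notes name bedtools 2.12.0, TopHat2 2.0.9, CASAVA 1.8 and Bowtie2 2.1.0.0, with mm9 and NCBIM37 as builds. Their roles, the strand setting and the tool behind the RPKM are not given in the sources used here.

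Counts were tested in R 4.3.3 with edgeR 4.0.16 (TMM scaling, its filter on low counts, quasi-likelihood test, Benjamini-Hochberg over 21983 genes), called at an adjusted p of 0.05. CPM uses TMM library sizes. The test was also run on simulated data, where it called 69 of 100 genes changed 2-fold and 100 of 100 changed 4-fold. Changes of less than 2-fold were not simulated. RPKM rows were joined for 34290 genes by unique symbol. Isoenzyme ratios of RPKM were compared on the log2 scale by exact permutation. Near-identical copies were found with BLAST 2.17.0 (at least 95% identity over 500 bases) among GENCODE transcripts. DESeq2 1.42.0 and limma 3.58.1 (log2(RPKM + 1), and voom with quality weights) were alternatives, and figures used matplotlib 3.10.9. All 10 genes were reported. Genes of the 4 pathway lists were named where called, where among the 3 smallest p-values of their list, or as the set names Gapdh, Pkm, Ldhb, Slc2a1, Slc2a3, Hif1a and Vegfa. A gene that this rule names is not reported here. Marker lists were given as sums and counts, with a few of their genes named after their values were seen. The genes most like Aldoc were the top 3 by Pearson's r. The 10 genes and all lists were chosen with earlier results of these data known. Gsx2 is listed in 2 overlapping rows, of which 1 was used.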

Additional observations from a re-analysis of the deposited data

How the results depend on the processing

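Over 20 other settings, 1 of them chosen after seeing the data, the Aldoc log2 fold change stayed negative, at -1.49 to -1.06 when single embryos were left out, and it was called in 13 of 20. Of the 10 genes, 1 was called. This count was 0 to 1 when single embryos were left out, 0 with embryo sex as a covariate or with RPKM and no filter, 2 with voom weights and 3 with DESeq2. All genes called numbered 799, and 218 (without vehicle 8) to 1943 (without FGF2 8) when single embryos were left out, with 517 without FGF2 6, 405 without FGF2 7, 242 without vehicle 7 and 307 without vehicle 9. They numbered 5 with sex, 2148 with voom weights, 2065 with DESeq2, 488 among genes whose span overlaps no other, 446 on log2(RPKM + 1), 440 on log2(RPKM + 0.1) and 324 on log2(RPKM + 1) with no filter. The causes of these shifts were not tested. The voom total was out of 21983 genes tested and the DESeq2 total out of 22899. When single embryos were left out, the log2 fold change of Hk1 ran from -0.12 to 0.015 (without FGF2 6) and that of Eno2 from -0.080 (without FGF2 8) to 0.29, so that both turned sign, and Eno2 did so with voom weights (-0.0088). Embryo numbers 7 and 8 occur in both groups, but the deviations of same-numbered embryos correlated at -0.0434 and -0.0184, so the numbers were not taken to pair embryos. With the number as a block, 703 genes and 2 of the 10 were called, Aldoc and Eno1 (log2 fold change -0.71, edgeR adjusted p = 0.0299), and Hk1 turned sign (0.0075). With the same block the Aldoc to Aldoa log2 difference was -1.02 and that of Eno2 to Eno1 1.02. The 3 isoenzyme ratios kept their sign under every alternative run, but 3 against 3 embryos cannot give p below 0.1. Female embryos occur only in the vehicle group, so sex and treatment cannot be fully told apart. The fit with sex as a covariate sets the 3 FGF2 embryos against 1 male vehicle embryo, vehicle 7.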
